A study of Mus musculus with 4 samples.

Results

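The genes described here encode enzymes of cholesterol synthesis, read out in bulk cultures differentiated from mouse embryonic stem cells. Markers of motor neurons, neural progenitors, cycling cells and endoderm all had rows. The set names 7 genes, Hmgcs1, Idi1, Fdps, Fdft1, Sqle, Lss and Cyp51, and takes as members the rows of the deposited table that carry one of these symbols. Of the 7 genes, 5 matched in this way among 11747 rows in all: Idi1, Fdft1, Sqle, Lss and Cyp51. Fdps had a row without a symbol, which was identified by its RefSeq accessions (NM_001253751 and NM_134469), and its values are given beside the 5 members but are not counted with them. Hmgcs1, which encodes the cytosolic HMG-CoA synthase, had no matching row, so its expression was not analysed here.

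Both groups were cultures of 1 engineered line, derived from the A172LoxP embryonic stem cell line, in which doxycycline switches on a transgenic transcription factor. Embryoid bodies, which are floating cell aggregates, were patterned for 2 days by retinoic acid at 0.5 µM together with purmorphamine, a small molecule that activates the hedgehog pathway, at 1 µM. The first group was then given 2 µg/mL doxycycline for a further 2 to 3 days (libraries 2 and 8 of the table), and the second vehicle for the same time (libraries 1 and 7). All 4 libraries therefore come from cells that carry the transgene, and an effect of doxycycline itself cannot be told apart from one of the induced factor. Whether separate cultures stand behind the 2 libraries of a group is not stated in the labels, so p-values measure the spread of these libraries alone, and that spread may be technical.

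Cholesterol is made from acetyl-CoA through mevalonate, a chain of isoprenoid intermediates, squalene and lanosterol. Idi1 and Fdps work on the isoprenoid intermediates, Fdft1 commits farnesyl pyrophosphate to squalene, Sqle and Lss turn squalene into lanosterol, and Cyp51 starts the trimming of lanosterol. When sterols run low, the membrane-bound SREBP transcription factors are cut free and raise the transcription of these enzymes. Growing neurons use cholesterol for axon and synapse membranes, and farnesyl pyrophosphate is also the source of prenyl groups and ubiquinone.

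Values are read counts that the authors normalized per library, and differences are on the log2(normalized count + 1) scale, doxycycline minus vehicle, given ± SE from limma. The normalized counts summed to between 26449555 and 27047458 per library, and the reads behind them were estimated at between 22434753 and 30235749. Over all rows, 278 passed limma at an adjusted p under 0.05, which is 2.37%, with 1.79% lower and 0.579% higher with doxycycline. The median difference over all rows was 0.00. The cultures had rows for 7 of 8 motor neuron markers and 9 of 10 pan-neuronal markers, while Slc5a7 and Map2 had no matching row. Libraries 7 and 8 stood apart from 1 and 2 in endoderm markers, with a median difference of 0.85 over the 6 listed of 11, and in pluripotency markers, with one of -0.95 over the 5 listed of 6 (libraries 7 and 8 minus 1 and 2).

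With doxycycline, Fdft1, which encodes squalene synthase, was lower, while Idi1, Sqle, Lss and Cyp51 did not pass the test. Of the 5 members 1, Fdft1, fell and none rose, against a background of 1.79% of rows that fell and 0.579% that rose. Fdps, not counted among the 5, also fell. At an unadjusted p under 0.05, 3 of the 5 were lower and none higher, where 11.5% and 9.58% of all rows were. The 5 members had a median difference of -0.20 and ranged from -0.40 to 0.06, and 3 of them, Fdft1, Sqle and Lss, had both doxycycline libraries below both vehicle libraries, which held for 26.5% of all rows. Since these are bulk cultures, fewer cells of a type and less RNA per cell cannot be told apart.

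**Figure D1:**
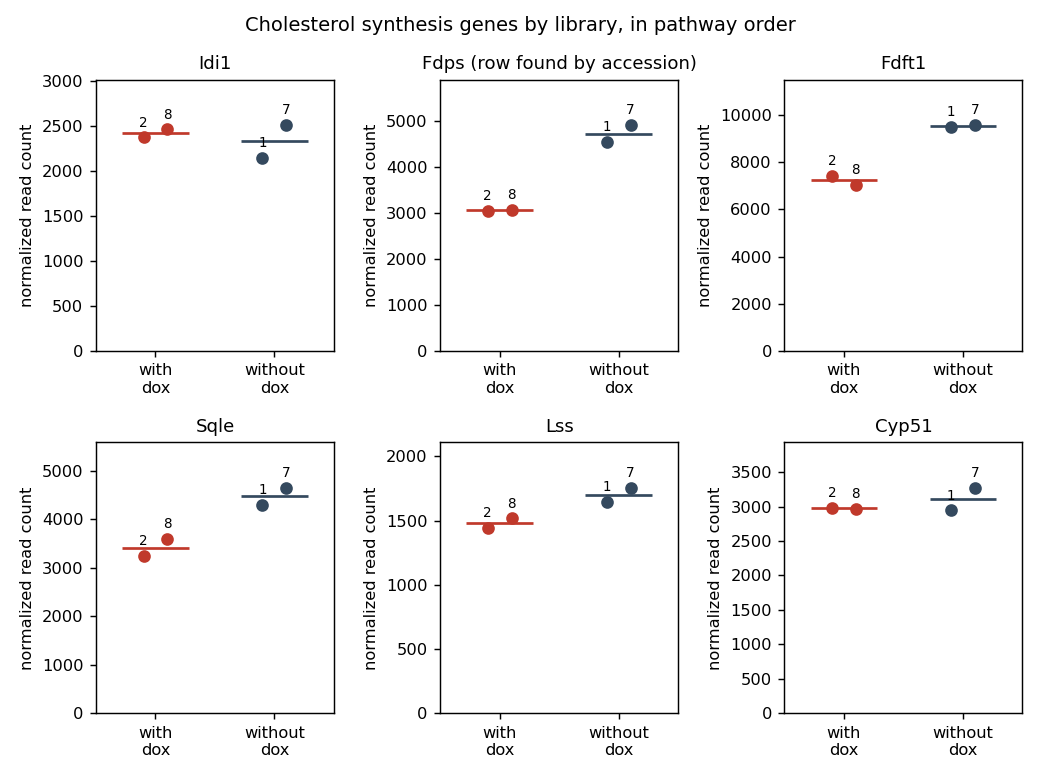
Normalized read counts (vertical axes, from 0) of the 5 members and Fdps in each library, with doxycycline (dox) on the left and without on the right; points are libraries with their numbers and bars are group means. The groups are apart for Fdps, Fdft1, Sqle and Lss, and overlap for Idi1 and Cyp51.

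Idi1, the isomerase that makes the isoprenoid building block reactive, had 2374 and 2465 normalized counts in libraries 2 and 8 with doxycycline, and 2146 and 2515 in libraries 1 and 7 with vehicle. The doxycycline libraries lay between the vehicle libraries. The difference was 0.06 ± 0.09 (limma, adjusted p = 0.769), with a 95% interval of -0.17 to 0.29, and 62.3% of all rows had a lower value. Without library 1 it was -0.06 and without library 7 it was 0.17, so its sign rests on library 1.

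Fdps encodes farnesyl pyrophosphate synthase, the branch point enzyme whose product feeds sterols, prenyl groups, dolichol and ubiquinone. It was at 3046 and 3074 normalized counts with doxycycline, against 4547 and 4925 with vehicle. All 4 values are apart by group, and the doxycycline libraries differ little from each other. Fdps averaged 3060.2 ± 19.5 with doxycycline and 4736 ± 267 with vehicle (SD, n = 2 each). It fell by 0.63 ± 0.07 on the log2 scale, to 0.647 of the vehicle level (limma, adjusted p = 0.0220), and 2.77% of all rows had a lower value. The call was lost without library 2 (limma, adjusted p = 0.0622) or 8 (0.0911), and without the intensity trend (0.0649), with a difference between -0.69 and -0.57 whichever library was left out.

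Fdft1 encodes squalene synthase, the first enzyme committed to sterols. Its counts were 7426 and 7048 with doxycycline and 9491 and 9591 with vehicle. Here too the groups do not overlap, and the vehicle libraries are close together. It averaged 7237 ± 268 with doxycycline and 9541 ± 71.1 with vehicle (SD, n = 2 each), a fall of 0.40 ± 0.06 on the log2 scale, to 0.758 of the vehicle level (limma, adjusted p = 0.0389). A lower value was found for 6.25% of all rows. The call was lost whichever library was left out (limma, adjusted p between 0.0628 and 0.171, with a difference between -0.44 and -0.36), with quantile normalization (0.0558) and without the intensity trend (0.106).

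Sqle encodes squalene epoxidase, an oxygen-dependent and rate-limiting step of the pathway. It was counted at 3239.8 and 3594 with doxycycline, and at 4297 and 4651 with vehicle. The groups are apart by more than the spread within either. The difference was -0.39 ± 0.08, nearly that of Fdft1 but with a larger error, and it did not pass (limma, adjusted p = 0.0759; 95% interval -0.59 to -0.19). Of all rows, 6.44% had a lower value.

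Lss encodes lanosterol synthase, which closes the sterol rings. The counts were 1443 and 1517 in the doxycycline libraries, and 1648 and 1758 in the vehicle libraries. The groups do not overlap, and the gap between them is wider than the spread within either. At -0.20 ± 0.08 the difference did not pass (limma, adjusted p = 0.217; 95% interval -0.39 to -0.01).

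Cyp51 encodes lanosterol 14-alpha demethylase, a cytochrome P450. It had 2976 and 2969 normalized counts with doxycycline, against 2944 and 3275 with vehicle. The vehicle libraries enclose the doxycycline libraries. The difference of -0.06 ± 0.08 did not pass (limma, adjusted p = 0.687; 95% interval -0.25 to 0.13), and it was 0.01 without library 7. The interval of Cyp51 includes the fitted value of Lss. The intervals of Idi1 and Cyp51 both lie above the fitted values of Fdft1, Sqle and Fdps.

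The proportions of the members to each other can be read within each library, where scaling between libraries has no part. The ratio of Fdft1 to Cyp51 was 2.50 and 2.37 in libraries 2 and 8 with doxycycline, against 3.22 and 2.93 in libraries 1 and 7 with vehicle. For Fdps to Idi1 it was 1.28 and 1.25 with doxycycline and 2.12 and 1.96 with vehicle. For Fdft1 to Idi1 it was 3.13 and 2.86 with doxycycline, and 4.42 and 3.81 with vehicle. Sqle to Cyp51 gave 1.09 and 1.21 with doxycycline and 1.46 and 1.42 with vehicle. All 4 ratios were lower in both doxycycline libraries than in both vehicle libraries. These pairs were chosen after the values were seen and were not tested.

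**Figure D2:**
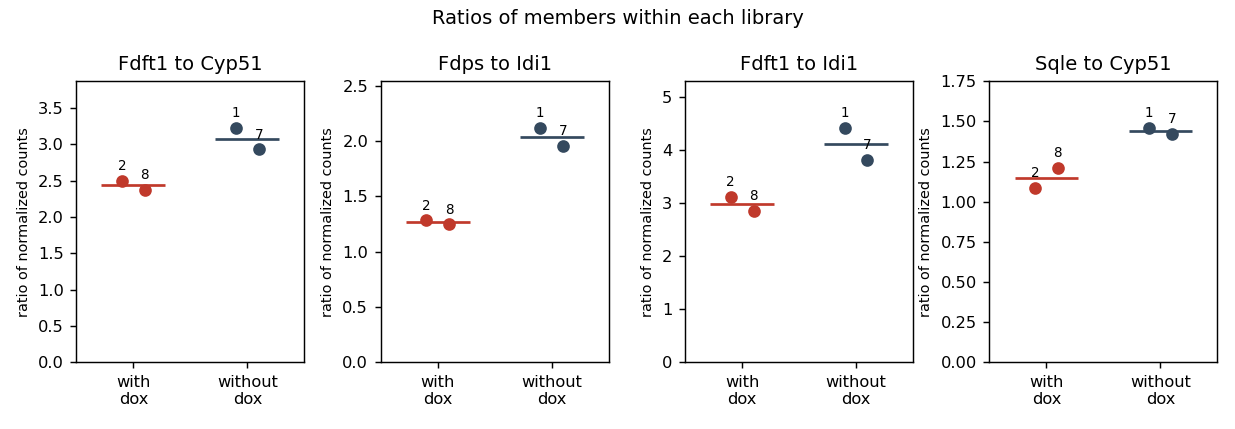
Ratios of the normalized counts of pairs of genes within a library (vertical axes, from 0), with doxycycline (dox) on the left and without on the right; points are libraries and bars are group means. In each panel both doxycycline libraries lie below both vehicle libraries, as for Fdps to Idi1 with 1.28 and 1.25 against 2.12 and 1.96.

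Per length of transcript, levels ranged more widely between enzymes than between the groups. Per kilobase of the longest GENCODE M21 transcript matched by accession, Fdps stood at 2204 and 2224 normalized counts with doxycycline and 3290.2 and 3564 with vehicle. Fdft1 had 2008 and 1906 with doxycycline, against 2566 and 2594 with vehicle. For Sqle these levels were 1175 and 1303 with doxycycline and 1558 and 1686 with vehicle. In each library the order was Fdps, Fdft1, Sqle, then Idi1 and Cyp51, then Lss. Idi1 (784 and 814 with doxycycline, 709 and 831 with vehicle) and Cyp51 (757 and 755 with doxycycline, 749 and 833 with vehicle) did not differ beyond their spread over the libraries. Lss was lowest, at 309 and 325 per kilobase with doxycycline and 353 and 377 with vehicle.

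Libraries can also be compared within the split of 1 and 2 from 7 and 8. Library 2 minus library 1 gave -0.35 for Fdft1, -0.58 for Fdps, -0.41 for Sqle and -0.19 for Lss on the log2 scale. Library 8 minus library 7 gave -0.44 for Fdft1, -0.68 for Fdps, -0.37 for Sqle and -0.21 for Lss. In these 4 genes both doxycycline libraries lay below both vehicle libraries, so each comparison had to be negative. Only the sizes could differ between the sides of the split, and they were similar. Idi1 was 0.15 in the first comparison and -0.03 in the second, and Cyp51 was 0.02 and -0.14. Between libraries 7 and 8 and libraries 1 and 2 the members themselves differed by -0.03 (Fdft1) to 0.14 (Idi1), less than the median of 0.85 of the endoderm markers.

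No source used here states the strand setting of the counting, so reads in overlapping exons cannot be assigned. In the GENCODE M21 annotation, exons of Fdft1 overlap exons of Ctsb, and those of Cyp51 overlap Akap9, each on the opposite strand. Ctsb, a lysosomal protease gene, had a difference of -0.04 ± 0.06 and Akap9, an anchoring protein gene, one of -0.29 ± 0.09, and neither passed (limma, adjusted p = 0.734 and 0.151). Fdps shares exons with the gene model Gm43738 on the same strand, Idi1 overlaps Gm48574 and Lss overlaps 4930483K19Rik, and these 3 had no matching row. What such reads add to the members' values was not tested.

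Among the other genes of the pathway, most had values below 0 and none passed. Of 15 genes listed for the remaining steps 14 had a row of their own, and none rose or fell (limma, adjusted p). At an unadjusted p under 0.05, 8 were lower and 1 higher, where 11.5% and 9.58% of all rows were. In 10 of the 14 both doxycycline libraries lay below both vehicle libraries (26.5% of all rows), and the median difference was -0.22. Hsd17b7, a reductase of sterol demethylation, had 627 and 608 normalized counts with doxycycline and 899 and 856 with vehicle. Its difference of -0.51 ± 0.09 lay just outside the threshold (limma, adjusted p = 0.0501), and just inside with robust empirical Bayes (0.0379).

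Mvk, the mevalonate kinase, had 1203 and 1199 with doxycycline and 1504 and 1454 with vehicle, a difference of -0.30 ± 0.07 (limma, adjusted p = 0.101). Acat2, Mvk, Pmvk and Mvd, which act before Idi1, had differences between -0.30 and -0.18. After Cyp51 the values were mixed. Lbr, a sterol reductase that is also the lamin B receptor, was at 0.25 ± 0.09, Msmo1 at 0.05 ± 0.08 and Erg28 at 0.08 ± 0.08. Below 0 were Hsd17b7 (-0.51), Dhcr7 (-0.24), Nsdhl (-0.20), Ebp (-0.06) and Sc5d (-0.06), and none of these genes passed.

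**Figure D3:**
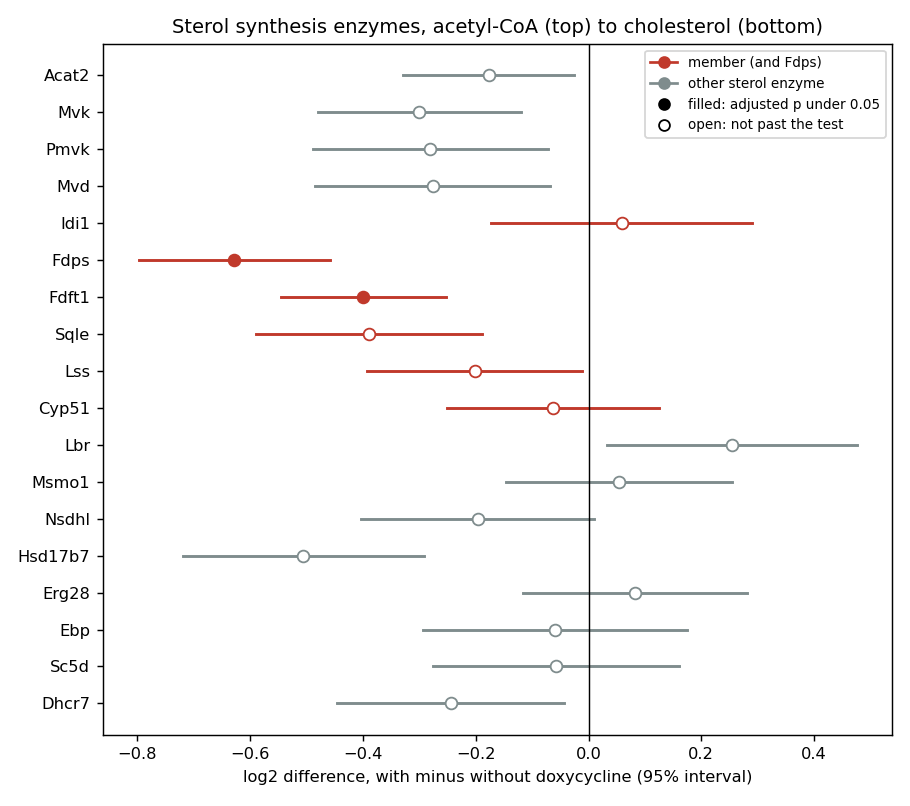
Log2 differences (horizontal axis, doxycycline minus vehicle) with 95% intervals for 18 sterol synthesis genes in the order of the pathway, downwards. Red marks the 5 members and Fdps, grey the others, and filled points have an adjusted p under 0.05 in limma. Fdps (-0.63) and Fdft1 (-0.40) are filled, Hsd17b7 (-0.51) is open, and Idi1, Cyp51 and Msmo1 lie near 0.

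The regulators of the pathway did not pass. Of 13 genes for sterol sensing, all with a row, none rose or fell (limma, adjusted p), and the median was -0.08. At an unadjusted p under 0.05, 2 were lower and none higher, where 11.5% and 9.58% of all rows were. Srebf2, the SREBP factor that acts mainly on sterol genes, had 8591 and 9159 normalized counts with doxycycline and 10266 and 10498 with vehicle, a difference of -0.23 ± 0.06 (limma, adjusted p = 0.124). Its groups do not overlap. Spring1, which helps SREBP maturation, was at -0.22 ± 0.09 and March6, a ubiquitin ligase of squalene epoxidase, at -0.18 ± 0.06 (limma, adjusted p = 0.245 and 0.191). Insig1, a sterol sensor of the endoplasmic reticulum and itself an SREBP target, had 3518 and 5456 with doxycycline, against 3969.7 and 5936 with vehicle. Both of libraries 7 and 8 lay above both of 1 and 2, by 0.61 on the log2 scale.

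Genes of sterol uptake and export had medians above 0. Of 10 uptake and delivery genes 9 had a row and none passed in either direction (limma, adjusted p), with a median of 0.06. At an unadjusted p under 0.05, 1 was lower and none higher, where 11.5% and 9.58% of all rows were. Lrp8, a receptor of reelin and apolipoprotein E, had a difference of -0.33 ± 0.09, Scarb1, a lipoprotein receptor, one of 0.38 ± 0.16 and Mylip, a ubiquitin ligase gene, one of 0.35 ± 0.17 (limma, adjusted p = 0.119, 0.241 and 0.292). Of 11 export and LXR genes 9 had a row. Against a background of 0.579% of rows that rose and 1.79% that fell, 1 rose and none fell. That one, the lipid carrier gene Apoe, rose by 0.54 ± 0.08 (limma, adjusted p = 0.0405). Its call was lost without library 1, 2 or 8 and without the intensity trend. Cyp46a1, the neuronal 24-hydroxylase that lets cholesterol leave the brain, had 568 and 561 with doxycycline, against 429 and 370.4 with vehicle (0.50 ± 0.11; limma, adjusted p = 0.0886), and the exporter gene Abca1 was at 0.19 ± 0.08 (0.254).

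Fatty acid synthesis shares acetyl-CoA and SREBP control with sterols. All 10 listed of 12 genes had values below 0, which 49.4% of all rows had, with a median of -0.15, and none passed (limma, adjusted p). At an unadjusted p under 0.05, 3 were lower and none higher, where 11.5% and 9.58% of all rows were. Acly, which supplies cytosolic acetyl-CoA to both pathways, had 17833 and 16908 normalized counts with doxycycline and 22159 and 21276 with vehicle, a difference of -0.32 ± 0.06 (limma, adjusted p = 0.0577, and 0.0367 with robust empirical Bayes). Fasn, the fatty acid synthase, was at -0.28 ± 0.05 and the elongase gene Elovl6 at -0.23 ± 0.07 (limma, adjusted p = 0.0641 and 0.155), Fasn at 0.0436 with robust empirical Bayes. Enzymes that use mevalonate products outside the sterol branch had a median of -0.02. Of 14 such genes 13 had a row of their own and none passed (limma, adjusted p), with 2 lower and 1 higher at an unadjusted p under 0.05, where 11.5% and 9.58% of all rows were. Dolk, the dolichol kinase, was at -0.28 ± 0.11, Icmt, which methylates prenylated proteins, at -0.20 ± 0.07 and Coq2, an enzyme of ubiquinone synthesis, at 0.24 ± 0.07.

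**Figure D4:**
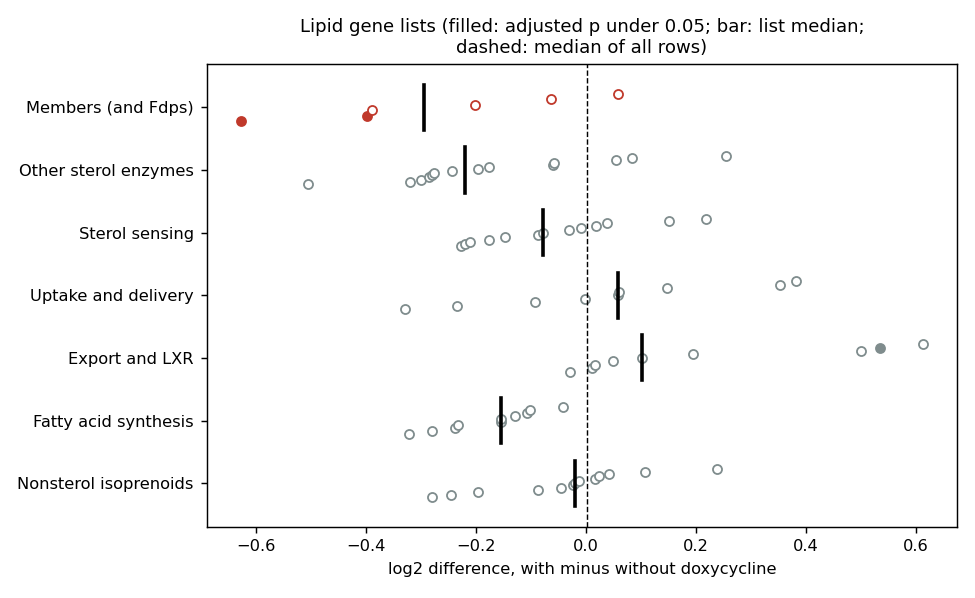
Log2 differences (horizontal axis, doxycycline minus vehicle) of single genes in 7 lipid gene lists; black bars are list medians, the dashed line is the median of all rows, and filled points have an adjusted p under 0.05 in limma. The members and Fdps have a median of -0.30, other sterol synthesis genes -0.22, fatty acid synthesis -0.15 and export genes 0.10, where Apoe is filled. Without Fdps, the median of the 5 members is -0.20, nearer to 0 than that of the other sterol synthesis genes.

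Marker lists of cell types differed in direction, with medians of -0.92 (pan-neuronal), -1.63 (motor neuron), 0.26 (cycling) and 0.23 (neural progenitor). Of 9 listed pan-neuronal markers 8 fell and none rose, against a background of 1.79% of rows that fell and 0.579% that rose. Their summed normalized counts were 71700.5 and 57475 with doxycycline, against 147881 and 131236 with vehicle. Of 7 listed motor neuron markers 6 fell and none rose, against the same background, with sums of 4916 and 4182 with doxycycline and 11135 and 10884 with vehicle. The other one, the LIM homeobox gene Lhx3, had 1819 and 1546 normalized counts with doxycycline, against 1352 and 974 with vehicle, and did not pass (0.55 ± 0.17; limma, adjusted p = 0.155). None of 9 cycling markers passed (limma, adjusted p), and the sums were 65776 and 68910.2 with doxycycline, against 53846 and 59801 with vehicle. At an unadjusted p under 0.05, 6 of them were higher and none lower, where 9.58% and 11.5% of all rows were. None of 9 neural progenitor markers passed either, with 3 higher and 1 lower at an unadjusted p under 0.05, beside the same shares of all rows. Values were above 0 for 7 of the 9 and below 0 for 2. Their sums, in which the most abundant markers weigh most, were 35018.5 and 38984 with doxycycline and 34445 and 36024 with vehicle.

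Of 5 listed glial markers 1, Slc1a3, rose and none fell (0.579% and 1.79% of all rows), while Sox10, Gfap, Aldh1l1 and Aqp4 had no matching row. The 5 had a median of -0.10 and ranged from -0.51 to 0.52. At an unadjusted p under 0.05, 1 was higher and 1 lower, where 9.58% and 11.5% of all rows were. Glial sums were 4651 and 5763 with doxycycline, against 4888 and 6664 with vehicle. Of these, Pdgfra alone gave 1304 and 2666 with doxycycline and 1829 and 3534 with vehicle. It was higher in libraries 7 and 8 than in 1 and 2, as the endoderm sums were. Endoderm markers summed to 11549 and 20124 with doxycycline and to 14008 and 21911 with vehicle, with none of 6 past the test or under an unadjusted p of 0.05, and Afp, Ttr, Apoa1, Apob and Amn had no matching row. Pluripotency markers, 5 of 6 listed, summed to 1674 and 789 with doxycycline and to 1890.1 and 944 with vehicle, and none passed or had an unadjusted p under 0.05. Their sums were lower in libraries 7 and 8 than in 1 and 2, where the endoderm sums were higher. The part of cell composition in the members' values was not tested.

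The rows most like the members were taken by the Euclidean distance, over the 4 libraries, between log2 values centred on their mean and the mean centred profile of the 5 members. Of 11482 rows compared, the 5 nearest were Mul1 (distance 0.0186), Large (0.0188), Lbh (0.0192), Sos1 (0.0200) and 2900011O08Rik (0.0239). Mul1, a mitochondrial ubiquitin ligase gene, had 700 and 733 normalized counts with doxycycline and 788 and 858 with vehicle. The 5 rows had differences between -0.22 and -0.19, which follow from how they were picked, and none passed. The mean profile averages members that range from -0.40 to 0.06, so a row near it need not resemble each member.

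RefSeq promoter entries, on GRCm38.p6, were matched by symbol for 3 of the 5 members, Idi1, Lss and Cyp51. The 250 bases before the RefSeq start are shown for these 3, where the letters of sterol control can be looked up. Fdft1 and Sqle, and also Fdps, had no matching entry, so the windows cover only the members with the smallest differences. Capitals mark 2 motifs, searched on both strands: the CCAAT box (CCAAT, or ATTGG on the other strand), bound by NF-Y, a common partner of SREBP, and a relaxed sterol regulatory element (TCACNNCA, or TGNNGTGA on the other strand).
Idi1, chr13:8885356-8885605, plus strand: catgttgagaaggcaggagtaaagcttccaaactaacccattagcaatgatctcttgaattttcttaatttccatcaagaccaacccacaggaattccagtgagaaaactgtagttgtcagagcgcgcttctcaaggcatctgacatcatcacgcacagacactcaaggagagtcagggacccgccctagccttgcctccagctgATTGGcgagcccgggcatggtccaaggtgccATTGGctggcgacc
Lss, chr10:76531355-76531604, plus strand: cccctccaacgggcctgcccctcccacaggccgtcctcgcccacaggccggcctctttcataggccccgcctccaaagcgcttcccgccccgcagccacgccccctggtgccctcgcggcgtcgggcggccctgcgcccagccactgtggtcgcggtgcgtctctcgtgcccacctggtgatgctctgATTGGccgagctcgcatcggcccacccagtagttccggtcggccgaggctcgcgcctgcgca
Cyp51, chr5:4104698-4104947, minus strand: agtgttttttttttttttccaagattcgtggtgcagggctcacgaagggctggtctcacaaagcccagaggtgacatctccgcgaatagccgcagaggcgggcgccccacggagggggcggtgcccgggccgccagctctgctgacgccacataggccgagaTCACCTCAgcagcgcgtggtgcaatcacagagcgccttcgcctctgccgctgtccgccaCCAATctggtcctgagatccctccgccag

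A CCAAT box was found in all 3 windows, 2 of them in Idi1, where 33.8% of 32851 promoter windows of the same length hold one. The relaxed sterol element was found in Cyp51, as TCACCTCA beginning 88 bases before the start, and in 11.4% of all windows. A stricter form (TCACNCCAC, or GTGGNGTGA on the other strand) was in none of the 3 and in 1.05% of all windows. The promoter of Hmgcs1, which has no row in the table and so no value here, held the strict form as TCACCCCAC, beginning 137 bases before the start. Among the other sterol synthesis genes 13 of 15 had an entry, of which 11 held a CCAAT box, 5 the relaxed element and none the strict one. A gene was counted if any of its entries held the motif. Pmvk had 2 entries and Dhcr7 had 3, so these counts are not on the same basis as the percentages of single windows. Hsd17b7 (-0.51) and Msmo1 (0.05) both held the box and the relaxed element. A match is a run of letters, and no match says nothing about binding outside this window.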

How the data were processed

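RNA was sequenced from 4 libraries of 1 stem cell line, 2 with doxycycline and 2 with vehicle, prepared with TruSeq chemistry and sequenced on Illumina instruments, per the labels' protocols. CASAVA, TopHat2, HTSeq, DESeq and the build mm9 are named, per the submitters' processing notes, with no version, setting, role or order. The deposited table holds a signal per row, a normalized read count with 2 decimals. In each library the values below 400 lie within 0.1 of whole multiples of 1 step (0.882 to 1.18), taken as what 1 read is worth. The table holds scaled values and not raw counts, so count models were not used, and numbers of reads are estimates from this step. The highest library of every row holds 101 or more estimated reads, and less abundant genes are not listed.

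Column names give the group by the initials of the treatment label. Their numbers (1, 2, 7 and 8) differ from the replicate numbers in the titles, so columns were matched to groups and not to single samples. Libraries of a group differed beyond sampling noise (chi-square per degree of freedom 28.3 between 2 and 8, and 26.4 between 1 and 7), so each counted as 1 sample. Symbols came from the table for 11335 rows and by RefSeq accession for 375; 28 rows join several genes and were not assigned, Tm7sf2 and Rabggtb among them.

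On the log2(normalized count + 1) scale, and with the scaling of the authors, rows were fitted with limma 3.58.1 in R 4.3.3, all 11747 of them. The fit used an intensity trend, two-sided moderated tests, Benjamini-Hochberg adjustment over all rows and a threshold of 0.05. No row fell under the minimum mean of 10 (the lowest was 40.1). Intervals are 95% intervals of the limma fit. The fit was checked on simulated data with known changes. Tables and plots were made with pandas 2.3.3, numpy 2.4.6 and matplotlib 3.10.9 under Python 3.11.15. Transcript lengths and overlapping exons are from GENCODE M21 and promoter sequences from RefSeq, both on GRCm38 and not on mm9.

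The members, the gene lists and the tests were chosen with earlier results of these data known. Genes named are all members, the genes of each lipid list that passed and its 3 smallest p-values, and the 5 rows most like the members in profile among rows with a mean of at least 50. Acat2, Pmvk, Mvd, Lbr, Msmo1, Erg28, Nsdhl, Ebp, Sc5d, Dhcr7 and Insig1 were named after their values were seen. So were the ratios, the overlapping genes, Slc1a3 and Lhx3. An older symbol assigned wrongly to Spring1 was corrected after the values were seen. Tried as alternatives were a pseudocount of 0.5 or 5, a minimum mean of 50 or none, quantile or TMM scaling, moderation without a trend or with robust estimates, a replicate block, and leaving out each library. The induced gene and some genes counted in the lists are not reported here by name.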

Additional observations from a re-analysis of the deposited data

How the results depend on the processing

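The single member call, that of Fdft1, was absent with quantile normalization and without the intensity trend (0 members each). Leaving out 1 library gave 0 members each time, with a lone library assumed to vary like the others. The members' median of -0.20 was -0.18 with quantile normalization and between -0.25 and -0.16 with 1 library left out, and the range between the highest and lowest member, 0.46, lay between 0.39 and 0.56. Robust empirical Bayes called 2 other sterol enzymes (Hsd17b7 among them) and 2 fatty acid genes (Acly and Fasn), where the main count was 0. Export and LXR calls, 1 in the main fit, were 0 without the trend and between 0 and 1 with 1 library left out. Over all rows, the 278 calls became 105 without the trend, 419 with robust empirical Bayes and between 44 and 494 with 1 library left out. Without 1 library, Idi1 lay between -0.056 and 0.17 (below 0 without library 1) and Cyp51 between -0.14 and 0.014 (above 0 without library 7); in other fits the sign of the 24 genes tried one by one was kept. The cause was not tested. With another pseudocount, filter or TMM factors the count over all rows lay between 275 and 280, and no lipid list's count of calls changed.

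The columns do not carry the labels' replicate numbers, so nothing in the design pairs them. With libraries 1 and 2, and 7 and 8, as a replicate block, deviations from the group means correlated at 0.63 over rows, and 3508 rows were called. The block left 1 residual degree of freedom, and its moderation rests almost wholly on the spread over all rows. Where the block called 3508 of all 11747 rows, it called 3 of the 5 members (Fdft1, Sqle and Lss, all lower). It called 10 of 14 other sterol synthesis genes (9 lower) and 6 of 10 fatty acid genes (6 lower). Calls were 4 of 13 in sterol sensing (3 lower) and 3 of 9 in uptake (2 lower). They were 4 of 9 in export (0 lower) and 2 of 13 in nonsterol isoprenoid genes (1 lower). Each test rests on 2 libraries a group, and genes under 101 estimated reads in every library are not listed.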
